A study of Mus musculus with 6 samples.

Results

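The genes described here are 34 cathepsin and other lysosomal genes, chosen by name from a table of 23494 genes in 6 RNA sequencing libraries labelled heart. All 34 had a row, and all 34 were among the 12865 tested genes, those whose mean reached 1 TPM (a share of the library's transcripts, corrected for transcript length). The mice were wild-type female C57BL/6 animals that carried B16F10 melanoma, a transplantable mouse tumour line, under the skin of one flank, so both groups had tumours. One group received the vehicle, phosphate-buffered saline, and the other received recombinant MANF (rMANF, mesencephalic astrocyte-derived neurotrophic factor) at 2 µg/kg into the peritoneal cavity every day from a mean tumour volume of about 60 mm3. The labels give 8 mice per group at randomisation and 3 biological replicates per group for sequencing. Neither the age of the mice nor the choice of animals for sequencing is stated in the labels. The table heads the vehicle columns with IgG, although the labels name saline as the vehicle, and the grouping follows the labels.

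Lysosomes are acidic compartments in which proteins, glycans and lipids taken up from outside or delivered by autophagy are broken down. Their proteases, glycosidases and lipid hydrolases are made in the endoplasmic reticulum and mostly reach the lysosome through a mannose 6-phosphate tag, and a heavily glycosylated membrane lines the compartment. Every nucleated cell has lysosomes, but macrophages are especially rich in them, and a few lysosomal proteins are made mainly by blood-derived cells. The transcription factor TFEB and its relatives bind CACGTG-containing sites, known as CLEAR elements, near many lysosomal genes.

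None of the 34 genes differed between the groups past the threshold of limma, a linear model with variances moderated across genes (Benjamini-Hochberg adjusted p under 0.05 over all 12865 genes), a threshold that 0 of all tested genes passed either (0%). At an unadjusted p under 0.05 there were 8 of the 34 (23.5%), against 2642 of all tested genes (20.5%). Lower in rMANF among these 8 were Ctsc, Cd68, Laptm5, Ctsk and Ppt1 (5 of 34, where 6.63% of all tested genes lay lower at that p), and higher were Gaa, Naglu and Npc2 (3 of 34, where 13.9% did). The 3 rMANF values were all under the lowest vehicle value for 6 members (17.6%, against 9.02% of all tested genes) and all over the highest for 3 members (8.82%, against 18.9%). The median log2 difference, rMANF minus vehicle, was −0.02 over the members and 0.04 over all tested genes, and 26 of the 34 differences were smaller than 0.2 in size. For any single gene the smallest p that an exact two-sided permutation test of 3 against 3 libraries can give is 0.1, so that test cannot reach 0.05 in this design.

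The libraries labelled heart held little RNA of heart muscle, so the lysosomal genes are not described here as those of heart tissue. The 14 cardiomyocyte markers, 12 of them in the table, summed to between 8.26 and 68.7 TPM per library. The cardiac actin gene Actc1, singled out after its values were seen, reached at most 0.905 TPM. The vehicle libraries held more skeletal muscle RNA (33.8 to 1413 TPM over 20 markers) than the rMANF libraries (12.1 to 26.1 TPM), with vehicle replicate 2 the highest. Manf itself differed by −0.25 ± 0.11 on the log2(TPM + 1) scale (SE; limma, adjusted p = 0.238), which does not check the labels because the injected protein was recombinant. Sequencing depth is unknown, since TPM does not retain the number of reads.

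As a set these genes made up a steady share of each library. Their summed expression was 7581 ± 340 TPM in the vehicle group and 7632 ± 177 TPM in the rMANF group (SD, n = 3 each), and it ran from 7220 TPM in vehicle replicate 2 to 7893 TPM in vehicle replicate 3, so the rMANF libraries lay inside the vehicle range. Sums by role pointed both ways. The cysteine proteases summed to 2098 to 2309 TPM in the vehicle group and 1990 to 2092 TPM in the rMANF group. The lipid enzymes, activators and sterol carriers summed to 1619 to 1794 TPM and 1807 to 1924 TPM. In neither case did the groups overlap, while the sums of the other roles overlapped, and no sum was tested. Expression was spread unevenly over the members. Cd63, a tetraspanin of late endosomes and lysosomes, was the most abundant at 1274 to 1423 TPM, followed by Psap, the precursor of the saposins that present sphingolipids to their hydrolases, at 1025 to 1258 TPM. These 2 genes held 33.1% of the members' TPM, and the 10 most abundant held 80.2%. The least abundant were Tfeb, the transcription factor of the lysosomal programme, at 3.70 to 6.07 TPM, and Ctsk, a collagen-degrading cathepsin, at 4.22 to 18.0 TPM.

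**Figure D1:**
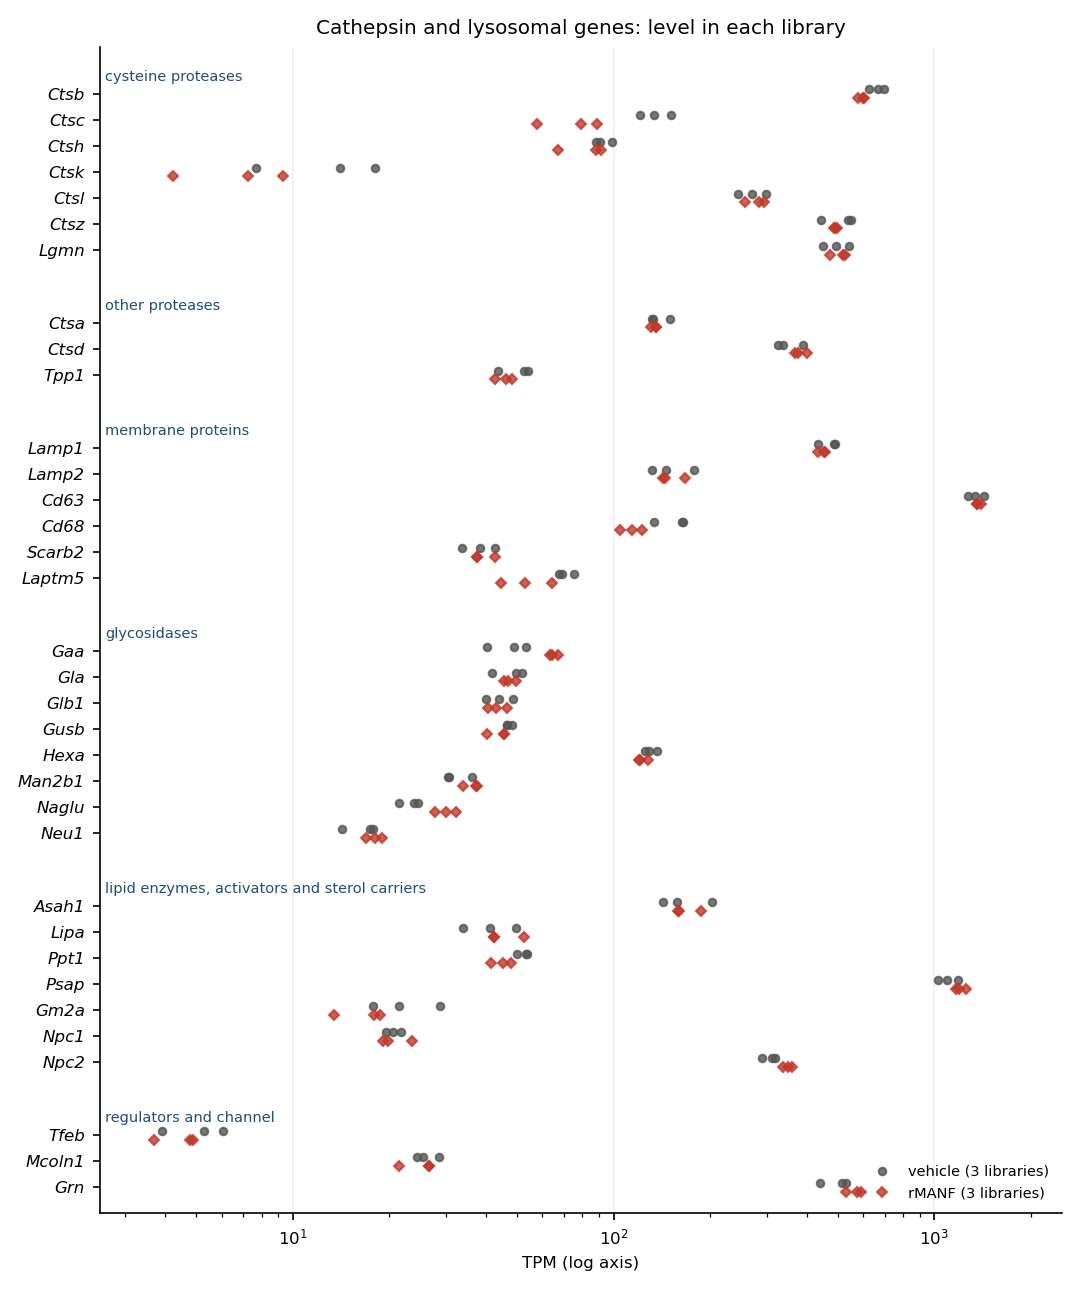
Level of each of the 34 genes in each library, in TPM on a log axis, grouped by role, with vehicle libraries as circles and rMANF libraries as diamonds. The groups interleave for most genes, while Ctsc (57.8 to 88.8 TPM in the rMANF group, 121 to 151 TPM in the vehicle group) and Cd68 separate downward and Gaa and Naglu separate upward.

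The start regions of the members were searched for CACGTG and for GTCACGTG, a longer sequence that contains it. CLEAR elements hold CACGTG and were already known near many lysosomal genes. The shares given here are therefore not independent of the choice of members. Windows from RefSeq (GRCm38.p6, the assembly of mm10), 300 bases long and reaching from 250 bases before to 50 after a gene's start, were found for 30 of the 34 genes, 35 windows in all. Not matched were Asah1, Ctsb, Ctsh and Npc1. The letters GTCACGTG, searched on both strands and overlapping the shorter core CACGTG, were present in 8 of the 35 windows (22.9%) and in 2.25% of all 32851 windows. The core CACGTG was present in 10 of the 35 (28.6%) and in 7.15% of all windows. The 11 matches to GTCACGTG lay at 8 genes, and they are shown because this motif was more frequent in the members' windows than in all windows, although 22 of the 30 matched genes lacked it. Each is given on the strand of its gene with GTCACGTG, or its reverse complement CACGTGAC, in capitals.
Lgmn (chr12:102439125-102439154, minus strand): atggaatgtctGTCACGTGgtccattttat
Ctsa, first match (chr2:164833748-164833777, plus strand): atgagcaaactGTCACGTGatgcagatgct
Ctsa, second match (chr2:164833767-164833796, plus strand): atgcagatgctCACGTGACcagagctacac
Ctsd, first match (chr7:142388054-142388077, minus strand): tccccCACGTGACctgtatccagt
Ctsd, second match (chr7:142387907-142387936, minus strand): cgcccgcgtctCACGTGACccgttgagggc
Lamp1 (chr8:13159122-13159151, plus strand): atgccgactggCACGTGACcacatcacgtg
Gla (chrX:134601183-134601212, minus strand): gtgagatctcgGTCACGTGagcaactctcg
Glb1 (chr9:114401017-114401046, plus strand): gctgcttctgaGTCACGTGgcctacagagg
Naglu (chr11:101070008-101070037, plus strand): ccaaccttcagGTCACGTGgcccgaggtcg
Mcoln1, first match (chr8:3500435-3500464, plus strand): gggtcgcgcttGTCACGTGttcagttcagg
Mcoln1, second match (chr8:3500463-3500492, plus strand): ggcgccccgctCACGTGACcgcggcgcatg
By the GENCODE M21 annotation, 5 of these matches lay upstream of the gene, 5 in an exon of it and 1, at Lgmn, in an intron. The genes with a match did not share a direction. Their log2 differences ran from −0.07 (Mcoln1) to 0.35 (Naglu) with a median of −0.02, the same to 2 decimals as the median of the 22 matched members without it (−0.02). The 10 genes with the core CACGTG ran from −0.07 to 0.45 with a median of 0.012. The 20 without the core had a median of −0.065, and the gap was not tested.

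Among the 7 cysteine proteases Ctsc and Ctsk had the largest differences. Ctsc encodes cathepsin C, the dipeptidyl peptidase that activates the serine proteases in the granules of neutrophils and cytotoxic lymphocytes. It measured 121, 151 and 134 TPM in vehicle replicates 1, 2 and 3 and 79.3, 88.8 and 57.8 TPM in rMANF replicates 1, 2 and 3. Every rMANF library lay below every vehicle library, with rMANF replicate 3 the lowest. The log2 difference was −0.85 ± 0.16 (SE; limma, adjusted p = 0.0893), the largest in size among the members. Ctsc (chromosome 7, 88278085 to 88310888, GRCm38) was also the one member with an adjusted p under 0.10, as 2.73% of all tested genes had. That count was 4 without vehicle replicate 1 (with Cd68, Gaa and Naglu) and 0 without vehicle replicate 2, without each of the rMANF libraries in turn or with the GC trend removed. Markers of cells known to use cathepsin C are given beside it. The 10 T cell markers, all measured and none at 0 in every library, summed to 43.4 to 99.5 TPM in the vehicle group and 20.5 to 38.3 TPM in the rMANF group. Vehicle replicate 2 held the highest sum. Thy1, also on the fibroblast list, gave 18.5 of the 43.4 TPM in vehicle replicate 3. The median difference of the T cell markers was −0.83, but −0.55 without vehicle replicate 2. It was −0.21 with a skeletal muscle covariate, the mean log2(TPM + 1) of the skeletal muscle markers. The summed muscle markers did not overlap between the groups. The covariate can therefore take up part of the group difference itself, here and wherever it is used below. The neutrophil markers, 8 of 10 in the table and 5 of them tested, summed to 21.7 to 207 TPM and 15.6 to 31.8 TPM, with overlapping groups and vehicle replicate 1 far above the rest. The median difference of the tested neutrophil markers was −0.91, but −0.22 when vehicle replicate 1 was left out. It was 0.07 when vehicle replicate 2 was left out as well, which leaves vehicle replicate 3 alone in its group. The part of either cell type in the Ctsc difference was not tested.

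The 250 bases before the Ctsc start are shown because this gene differed most. They hold no CACGTG, and the capitals mark one match to GAGGAAGT, the sequence preferred by the myeloid factor PU.1, here as its reverse complement ACTTCCTC 151 bases before the start. That motif, searched on both strands, was present in 3 of the 35 member windows (8.57%) and in 3.2% of all windows.
Ctsc (chr7:88277835-88278084, plus strand): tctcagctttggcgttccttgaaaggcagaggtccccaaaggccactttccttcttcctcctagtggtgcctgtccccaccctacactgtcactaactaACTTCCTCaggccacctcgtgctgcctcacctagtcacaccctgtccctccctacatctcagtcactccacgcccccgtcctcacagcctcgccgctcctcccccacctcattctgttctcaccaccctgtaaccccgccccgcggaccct

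Ctsk, best known from bone-resorbing osteoclasts and from fibroblasts that degrade collagen, had a difference of similar size and a wide spread. It measured 14.0, 18.0 and 7.70 TPM in the vehicle libraries and 7.24, 9.35 and 4.22 TPM in the rMANF libraries. The groups overlapped, because vehicle replicate 3 lay below rMANF replicate 2. The log2 difference was −0.83 ± 0.33 (limma, adjusted p = 0.214). It was −0.19 without vehicle replicates 1 and 2, which leaves vehicle replicate 3 alone in its group. Without rMANF replicate 3 it was −0.55, and with the skeletal muscle covariate −0.29. Fibroblast markers summed to 361 to 507 TPM in the vehicle group and 291 to 380 TPM in the rMANF group, so the groups overlapped. Of the 11 listed 10 were in the table, none at 0 in every library. Vehicle replicate 3 was the lowest vehicle library for them too. Of the 10 tested markers 7 lay lower and 3 higher, among the latter Dpt at 0.33 ± 0.12. The markers' median difference was −0.57, and −0.25 with vehicle replicate 3 as the only vehicle library. Their part in the Ctsk difference was not tested.

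The broadly expressed cysteine proteases differed little. Ctsb, an endo- and exopeptidase and the most abundant cathepsin of the 34 genes, measured 667, 625 and 698 TPM in the vehicle group and 579, 601 and 602 TPM in the rMANF group. Its groups did not overlap, but the log2 difference was only −0.16 ± 0.07 (limma, adjusted p = 0.283). Ctsl, an endopeptidase, ran from 245 to 299 TPM over the 6 libraries and differed by 0.04 ± 0.10. Ctsz, a carboxypeptidase, ran from 445 to 549 TPM and differed by −0.05 ± 0.10. Lgmn, which encodes the asparaginyl endopeptidase legumain that processes several cathepsins, ran from 450 to 541 TPM and differed by 0.03 ± 0.09. Ctsh, an aminopeptidase, overlapped between groups (88.1 to 99.0 TPM in the vehicle group, 67.3 to 91.6 TPM in the rMANF group), its lowest value again being that of rMANF replicate 3, without which its difference went from −0.18 to −0.04. The signs of the Ctsl, Ctsz and Lgmn differences turned under other settings. With median-of-ratios scaling Lgmn stood at −0.01. Whether Ctsc or Ctsk differed from these relatives in its response was not tested.

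The other proteases overlapped between groups. Ctsd, the aspartic cathepsin, measured 325, 337 and 390 TPM in the vehicle group and 377, 401 and 369 TPM in the rMANF group, a log2 difference of 0.13 ± 0.09. Ctsa, the serine carboxypeptidase that also protects the enzymes encoded by Glb1 and Neu1 inside the lysosome, differed by −0.05 ± 0.08 at 131 to 150 TPM. Tpp1, a tripeptidyl peptidase whose loss causes a neuronal storage disease, differed by −0.13 ± 0.11 at 42.6 to 54.2 TPM. The limma adjusted p of these 3 genes ran from 0.470 for Ctsd to 0.797 for Ctsa.

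**Figure D2:**
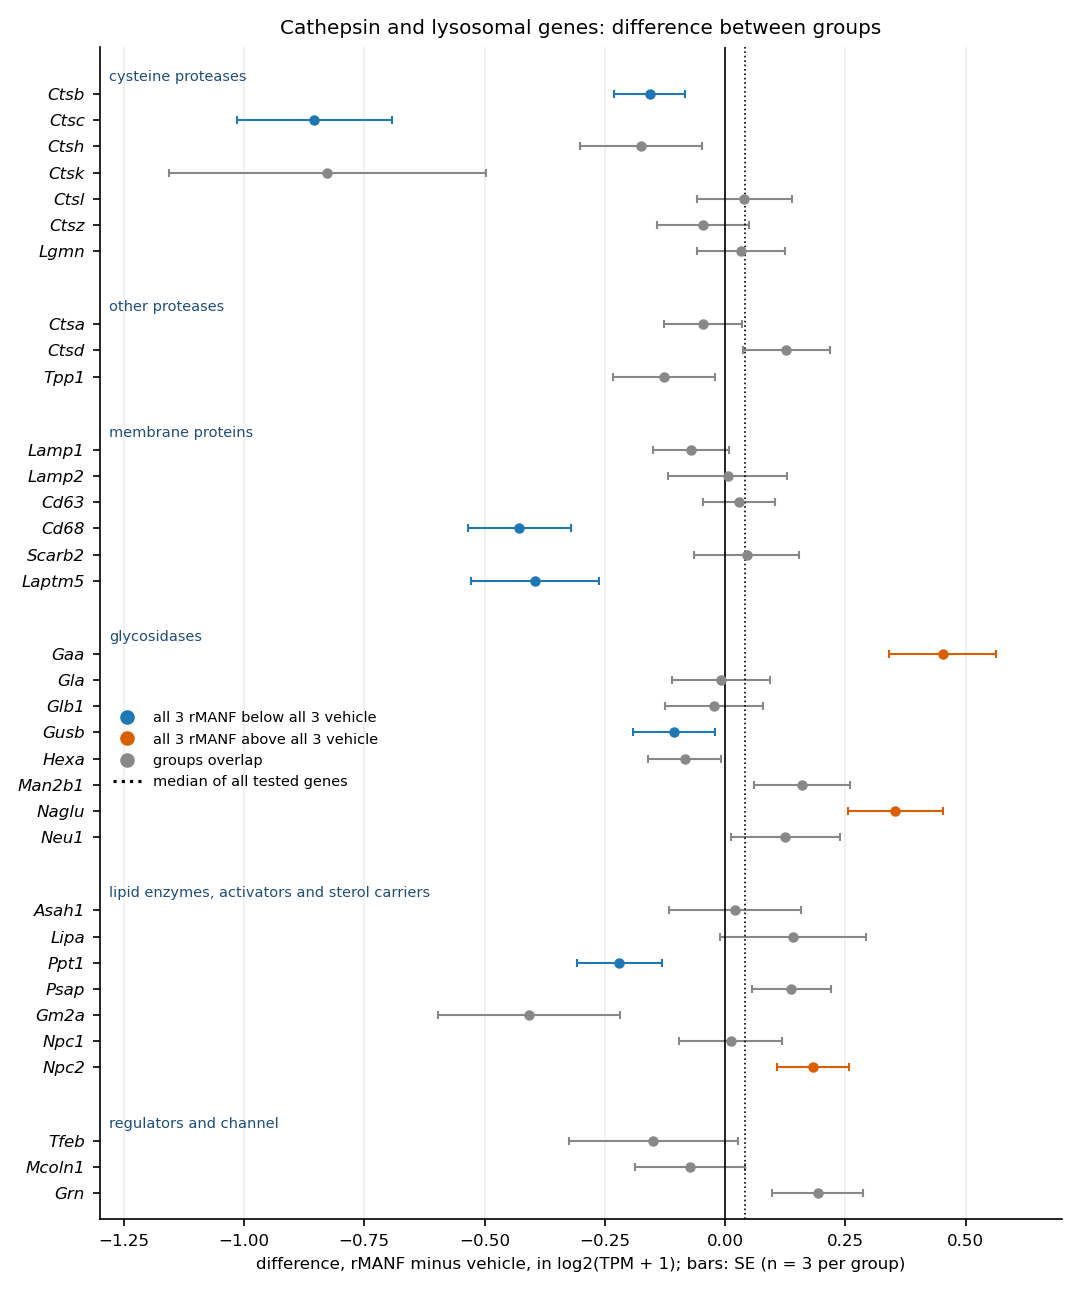
Difference of each gene between groups, rMANF minus vehicle on the log2(TPM + 1) scale, with bars for the SE (n = 3 per group) and colours for genes whose groups do not overlap. Most points lie within 0.2 of zero; Ctsc (−0.85) and Ctsk (−0.83) lie farthest to the left and Gaa (0.45) farthest to the right.

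Of the 6 membrane proteins limma called 0, and Cd68 and Laptm5 had the largest differences. Cd68, a heavily glycosylated protein of macrophage lysosomes, measured 134, 165 and 163 TPM in the vehicle libraries and 123, 114 and 105 TPM in the rMANF libraries. Laptm5, a lysosomal membrane protein of blood-derived cells that lowers surface receptors, measured 75.2, 69.0 and 67.6 TPM and 64.4, 52.8 and 44.6 TPM. For both genes every rMANF library lay below every vehicle library, with rMANF replicate 3 the lowest. The log2 difference was −0.43 ± 0.11 for Cd68 (limma, adjusted p = 0.112). For Laptm5 it was −0.40 ± 0.13 (adjusted p = 0.163). Lamp1 and Lamp2, the main glycoproteins of the lysosomal membrane in all cells, differed by −0.07 ± 0.08 and 0.01 ± 0.12. Lamp2 ran from 132 to 178 TPM among the vehicle libraries, which took in the 143 to 167 TPM of the rMANF libraries. Cd63 differed by 0.03 ± 0.07, and Scarb2, which encodes the receptor LIMP-2 that carries glucocerebrosidase to the lysosome, by 0.04 ± 0.11. The signs of the Lamp2, Cd63 and Scarb2 differences turned under at least 1 other scaling (Lamp2 −0.03 and Cd63 −0.01 with median-of-ratios scaling, Scarb2 −0.01 with quantile normalization).

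The 250 bases before the Cd68 start (gene at chromosome 11, 69664213 to 69666153, minus strand) are shown as those of the macrophage member. They contain neither CACGTG nor GAGGAAGT, and so no capitals.
Cd68 (chr11:69666171-69666420, minus strand): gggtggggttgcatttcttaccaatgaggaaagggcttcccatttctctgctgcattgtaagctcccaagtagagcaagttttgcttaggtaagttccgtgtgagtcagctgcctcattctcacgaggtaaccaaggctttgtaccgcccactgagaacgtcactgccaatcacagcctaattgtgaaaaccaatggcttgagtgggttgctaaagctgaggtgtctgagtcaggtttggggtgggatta

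Macrophage markers lay lower together with Cd68, Laptm5 and Ctsc. All 20 markers on the list were measured, none was at 0 in every library, and all 20 had a difference below 0, which 42.7% of all tested genes had. Limma called 0 of them, and for 10 of them every rMANF library lay below every vehicle library (50%, against 9.02% of all tested genes). Their summed expression was 3744, 4280 and 4186 TPM in vehicle replicates 1, 2 and 3 and 3048, 2875 and 2186 TPM in rMANF replicates 1, 2 and 3. The groups did not overlap, and rMANF replicate 3 was lowest, as for the 3 lysosomal genes. The median log2 difference over the markers was −0.53, between that of Cd68 and that of Ctsc. Lyz2, the macrophage lysozyme, and Fcer1g, through which Fc receptors signal, differed by −0.82 ± 0.17 and −0.88 ± 0.13, and Aif1, an actin-binding protein, by −0.85 ± 0.13. In bulk samples such as these, fewer cells of a type and less RNA per cell cannot be told apart. The part of the macrophage level in the lysosomal differences was not tested.

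Set against the summed macrophage markers, the 3 genes did not all keep step. Cd68 stood at 3.58%, 3.85% and 3.90% of that sum in the vehicle libraries and at 4.03%, 3.98% and 4.79% in the rMANF libraries. Laptm5 stood at 2.01%, 1.61% and 1.61% and at 2.11%, 1.84% and 2.04%. Ctsc stood at 3.24%, 3.53% and 3.20% in the vehicle libraries and at no more than 3.09% in the rMANF libraries. By this measure Cd68 was higher in every rMANF library, Laptm5 overlapped between groups and Ctsc was lower in every rMANF library. Lgmn, whose own level differed by 0.03, stood at 12.2% ± 1.47 of the sum in the vehicle libraries and 19.0% ± 2.33 in the rMANF libraries (SD, n = 3 each). A higher mean percentage in the rMANF libraries was found for 32 of the 34 genes, all but Ctsc and Ctsk, and for 26 of them the groups did not overlap. The direction of Cd68 was thus that of most members. The macrophage sum itself was lower in every rMANF library, so a gene of unchanged level rises by this measure. The share of all tested genes that rose was not computed, so these counts are not read as a result about the members. These percentages are descriptions of the libraries and carry no test.

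**Figure D3:**
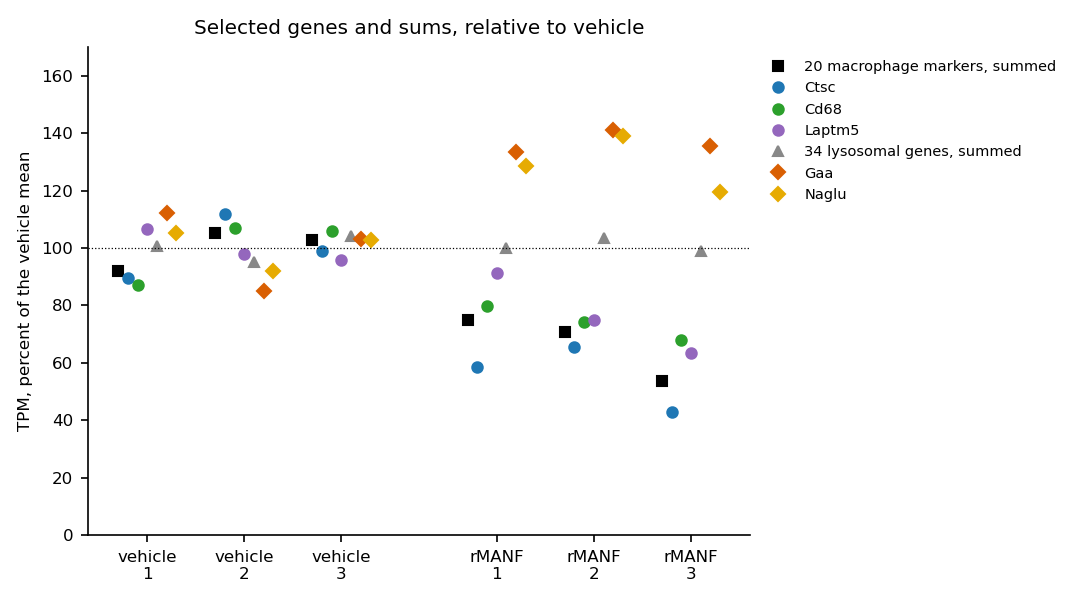
Level in each library as a percentage of the vehicle mean for 5 genes, for the 34 lysosomal genes summed and for 20 macrophage markers summed, all from TPM. The sum of the 34 genes (7220 to 7893 TPM) stays level, Ctsc, Cd68 and Laptm5 lie low with the macrophage markers in the rMANF libraries, and Gaa and Naglu lie high.

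Among the glycosidases, Gaa and Naglu had higher values in every rMANF library, without passing the test. Gaa, the acid alpha-glucosidase that degrades lysosomal glycogen and is missing in Pompe disease, measured 53.3, 40.4 and 49.0 TPM in the vehicle libraries and 63.5, 67.2 and 64.4 TPM in the rMANF libraries. Naglu, which removes N-acetylglucosamine from heparan sulfate, measured 24.5, 21.4 and 23.9 TPM and 30.0, 32.4 and 27.8 TPM. For both genes every rMANF library lay above every vehicle library, and vehicle replicate 2 was the lowest. The log2 difference was 0.45 ± 0.11 for Gaa (limma, adjusted p = 0.11). For Naglu it was 0.35 ± 0.10 (adjusted p = 0.126). Both transcripts are rich in G and C (59.5% for Gaa and 59.8% for Naglu, against a median of 51.5% over the members). With each library's trend on GC content removed the differences were 0.27 and 0.17, and with the skeletal muscle covariate they were 0.27 and 0.26. Across the 34 members GC content and the log2 difference had a Pearson correlation of 0.31, and across 12828 tested genes 0.29. These genes share the same 6 libraries, so both values are descriptions.

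The bases upstream of Gaa (gene at chromosome 11, 119267887 to 119285454, plus strand) are shown as those of the member that lay highest relative to vehicle. They end at the first annotated start, and the capitals mark CACGTG, 140 bases before the RefSeq start.
Gaa (chr11:119267713-119267886, plus strand): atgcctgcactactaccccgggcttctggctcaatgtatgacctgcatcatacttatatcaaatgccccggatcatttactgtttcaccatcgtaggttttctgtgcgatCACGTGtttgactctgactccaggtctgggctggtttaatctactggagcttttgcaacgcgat

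The remaining 6 glycosidases lay within 0.2 of zero. Man2b1, the alpha-mannosidase of glycoprotein breakdown, ran from 30.5 to 37.6 TPM over the 6 libraries with overlapping groups. Its log2 difference was 0.16 ± 0.10, or 0.06 with the skeletal muscle covariate. With vehicle replicate 3 as the only vehicle library it was 0.0030. Neu1, the lysosomal sialidase, differed by 0.13 ± 0.11 at 14.2 to 19.0 TPM. Gla, the alpha-galactosidase missing in Fabry disease, and Glb1, the beta-galactosidase, differed by −0.01 ± 0.10 and −0.02 ± 0.10. Hexa, the alpha subunit of beta-hexosaminidase, differed by −0.08 ± 0.08. Gusb, the beta-glucuronidase, had groups that did not overlap (46.5 to 48.4 TPM in the vehicle group, 40.3 to 45.6 TPM in the rMANF group), with a difference of −0.11 ± 0.09 (limma, adjusted p = 0.525).

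Genes of lipid breakdown and sterol export pointed both ways. Npc2, the soluble protein that hands cholesterol to the membrane protein encoded by Npc1, measured 290, 319 and 312 TPM in the vehicle group and 350, 336 and 360 TPM in the rMANF group. Its groups did not overlap, with a log2 difference of 0.18 ± 0.08 (limma, adjusted p = 0.224). Npc1 differed by 0.01 ± 0.11 at 19.2 to 23.6 TPM, and its sign turned under all 3 other scalings. Ppt1, the thioesterase that removes palmitate from proteins, measured 53.8, 49.9 and 53.3 TPM in the vehicle group and 45.1, 48.0 and 41.4 TPM in the rMANF group, again without overlap. Its difference was −0.22 ± 0.09 (limma, adjusted p = 0.216), and −0.15 with the GC trend removed. A neighbour on the other strand, Cap1, shares exonic sequence with Ppt1, and the library kit does not mark strand.

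Gm2a, the activator that lifts the ganglioside GM2 to the hexosaminidase, differed by −0.41 ± 0.19. Its spread was wide and its groups overlapped (17.8 to 28.9 TPM in the vehicle group, 13.4 to 18.8 TPM in the rMANF group). Leaving out vehicle replicate 2, where Gm2a was highest, gave −0.23, and the skeletal muscle covariate gave −0.11. Psap differed by 0.14 ± 0.08. Lipa, the acid lipase that frees cholesterol from its esters, differed by 0.14 ± 0.15 and ranged from 33.9 to 52.6 TPM. Asah1, the acid ceramidase, differed by 0.02 ± 0.14, with vehicle replicate 1 (203 TPM) and vehicle replicate 2 (143 TPM) as its extremes.

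The regulators differed little. Tfeb measured 3.90, 6.07 and 5.27 TPM in the vehicle group and 3.70, 4.87 and 4.78 TPM in the rMANF group, a log2 difference of −0.15 ± 0.18 that was −0.42 with the GC trend removed, −0.022 with the skeletal muscle covariate and −0.033 without vehicle replicate 2. Mcoln1, the calcium channel of the lysosomal membrane known as TRPML1, differed by −0.07 ± 0.11 at 21.5 to 28.5 TPM. Grn, the precursor of the granulins and a regulator of lysosomal enzymes, measured 529, 441 and 515 TPM in the vehicle group and 574, 590 and 529 TPM in the rMANF group. Its difference was 0.19 ± 0.09 (limma, adjusted p = 0.293), and the highest vehicle value equalled the lowest rMANF value. With the GC trend removed it was 0.09, with the skeletal muscle covariate 0.06 and without vehicle replicate 2 0.11.

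Other lysosomal hydrolases and membrane proteins also included both genes that lay lower and genes that lay higher. Of 27 tested hydrolases outside the 34, limma called 0. Of these 13 lay lower (48.1%, against 42.7% of all tested genes) and 14 higher (median 0.02). For 9 of them the rMANF libraries were all higher than the vehicle libraries (33.3%, against 18.9% of all tested genes), among them Dnase2a, the acid DNase, at 0.38 ± 0.09, and Arsa and Sgsh, 2 sulfatases, at 0.48 ± 0.12 and 0.56 ± 0.14. The Arsa difference was 0.23 with vehicle replicate 3 as the only vehicle library. For 2 of the 27 the rMANF libraries were all lower (7.41%, against 9.02%), and both were named after their values were seen. Ctss, a cysteine cathepsin of antigen-presenting cells and the most abundant gene of that list, measured 680, 907 and 702 TPM in the vehicle libraries and 536, 510 and 332 TPM in the rMANF libraries. Its log2 difference was −0.75 ± 0.19 (limma, adjusted p = 0.115), and rMANF replicate 3 was again the lowest. Arsb, a sulfatase of low level (1.74 to 2.36 TPM in the vehicle group, 0.608 to 1.04 TPM in the rMANF group), differed by −0.67 ± 0.20. Of 18 other lysosomal membrane proteins limma called 0 (median 0.03). There the iron transporter gene Slc11a1, made mainly by macrophages, lay lower at −0.56 ± 0.17, or −0.37 without rMANF replicate 3. The lipid transporter gene Abca2 lay higher at 0.36 ± 0.13, or 0.17 with the skeletal muscle covariate.

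The proton pump, the sorting machinery and autophagy were described from lists of the same kind. Limma called 0 of 18 tested subunits and accessory proteins of the V-ATPase, which acidifies the lysosome. Of these 15 had a difference below 0 (83.3%, against 42.7% of all tested genes) with a median of −0.09. Among them were Atp6v0e at −0.26 ± 0.09 and Atp6v0d2, a subunit of osteoclasts and macrophages with a mean of only 1.69 TPM, at −0.72 ± 0.32. Without vehicle replicate 2, its highest library, Atp6v0d2 was −0.37, and with the skeletal muscle covariate −0.10. Of 19 genes of mannose 6-phosphate tagging and sorting 13 lay higher, with a median of 0.10, and limma called 0. The other 6 lay lower (31.6%, against 42.7% of all tested genes). The adaptor gene Ap1m1 differed by 0.32 ± 0.08 and Gga1 by 0.38 ± 0.12, which was 0.13 with the GC trend removed. The 6 tested cathepsin inhibitors had a median of −0.18 with 0 called. Cst7, an inhibitor that acts on cathepsin C, lay at 4.93 ± 1.81 TPM in the vehicle group and 2.43 ± 0.57 TPM in the rMANF group, with overlapping groups and a log2 difference of −0.75 ± 0.25. That difference was −0.24 with vehicle replicate 3 as the only vehicle library.

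Of 18 autophagy genes, limma called 0, 13 lay higher and 5 lower (27.8%, against 42.7% of all tested genes). For 8 of the 18 every rMANF library lay above every vehicle library (44.4%, against 18.9% of all tested genes). Sqstm1, the cargo receptor p62, measured 356 ± 31.9 TPM in the vehicle group and 485 ± 45.1 TPM in the rMANF group (SD, n = 3 each), a log2 difference of 0.45 ± 0.10 (limma, adjusted p = 0.0997). Wipi1 and Ulk1, which act in early autophagosome formation, differed by 0.52 ± 0.15 and 0.42 ± 0.12. Wipi1 was 0.27 with the skeletal muscle covariate, and Ulk1 was 0.27 with the GC trend removed. The 19 genes of the relatives of Tfeb and of mTORC1 at the lysosome had a median of −0.02 with 0 called, and Tfec, a relative of Tfeb made mainly by macrophages, differed by −0.46 ± 0.19, or −0.30 without vehicle replicate 1.

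**Figure D4:**
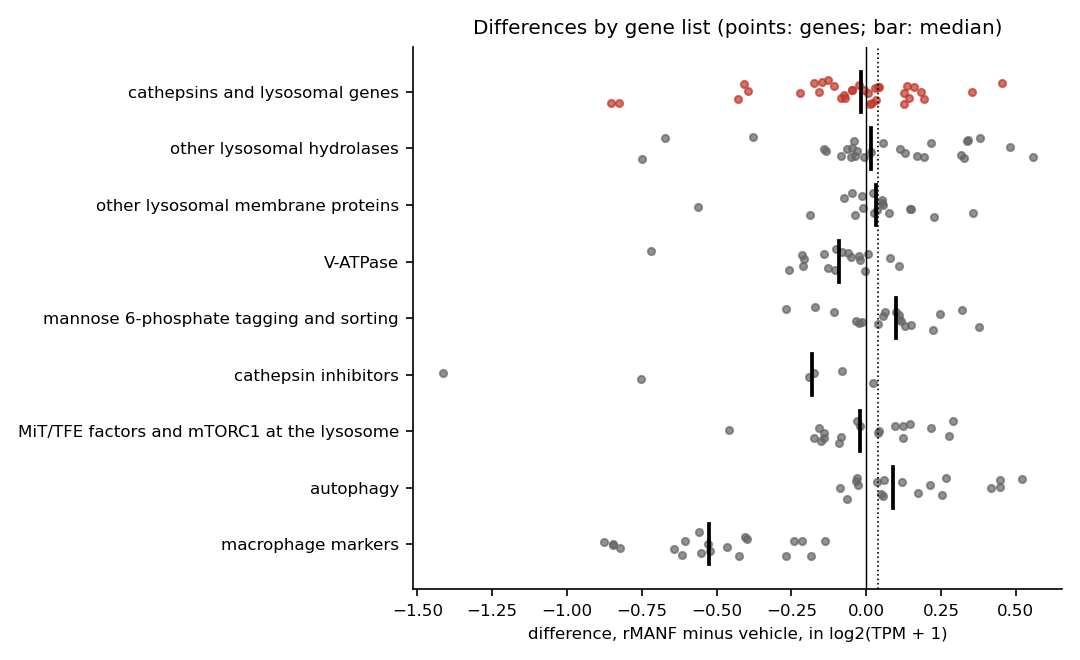
Log2 differences, rMANF minus vehicle on the log2(TPM + 1) scale, for the tested genes of each list, with a bar at each list's median and a dotted line at the median of all tested genes (0.04). The 34 cathepsin and lysosomal genes centre near zero (−0.02) and macrophage markers lie to the left (−0.53).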

How the data were processed

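RNA sequencing values of 6 libraries, 3 labelled vehicle and 3 labelled rMANF, were analysed. The authors deposited log2 TPM per gene. The tools named, per the submitters' processing notes, are Salmon 0.14.1, HTSeq 0.11.0, fastp and cutadapt, and the build is mm10. No source used here says which of them gave the values. A deposited value of −9 was read as 0 TPM. Depth is unknown, so no counting interval was computed.

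Differences were computed on log2(TPM + 1), a scale that makes changes of low genes look smaller, for the 12865 genes averaging 1 TPM or more, with limma 3.58.1 in R 4.3.3 (no covariate, variance trend, two-sided, Benjamini-Hochberg over all genes tested). The procedure was tested on simulated data. The members and lists were chosen with earlier results of these data known. Named were all members, Manf, and up to 3 genes of smallest p per other list described. Alternatives covered the pseudocount, filter, scaling, variance model, weights, replicate block, GC trend (loess), skeletal muscle level and libraries left out. Nothing in the labels says more than biological replicate, so whether each library came from a single mouse is unknown. The p-values set each group difference against the variation between these libraries, moderated across genes.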

Additional observations from a re-analysis of the deposited data

How the results depend on the processing

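Of the 34 genes, 19 kept the sign of their difference under all 21 alternatives (13 lower, 6 higher), Ctsc, Cd68, Laptm5, Gaa and Naglu among them. Of the 34, 0 passed an adjusted p of 0.05 under any alternative except library weights, where 3 did (Ctsc, Cd68 and Gaa). At a threshold of 0.10 there was 1, with a range of 0 to 4 with 1 library left out. Over all genes, rMANF minus vehicle, the count at 0.05 rose from 0 to 737 with library weights and 3 with the replicate block. It was 25 with the GC trend removed and the replicate block, and ranged from 0 to 4 with 1 library left out. At 0.10 it was 351, and from 0 to 971 with 1 library left out. The replicate numbers did not pair the libraries: deviations of same-numbered libraries correlated at −0.07, 0.03 and 0.05 across genes, and not every library correlated best with its own number. The replicate block left the count of members at 0. The median difference of the member genes ranged from −0.06 to 0.01 with 1 library left out. It was −0.10 with the muscle covariate (mean log2(TPM + 1) of the skeletal muscle markers). Summed, those markers did not overlap between the groups, so the covariate can take up part of the group difference. The median was −0.11 without vehicle replicates 1 and 2, which leaves vehicle replicate 3 alone in its group. Differences below 0 numbered 18 of 34, 23 with median-of-ratios scaling and 21 with quantile normalization, and the share of all tested genes above 0 was 57.3%, 50.9% and 52.7%.

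Signs turned for 15 members, and the cause was not tested. With library weights the values were Ctsl −0.064, Lgmn −0.049, Scarb2 −0.067 and Npc1 −0.051. With the muscle covariate the values were Ctsl −0.12, Ctsz 0.0081, Lgmn −0.095, Lamp2 −0.13, Cd63 −0.028, Scarb2 −0.13, Neu1 −0.029, Asah1 −0.12, Lipa −0.071, Npc1 −0.074 and, outside the members, Cstb 0.011. Without vehicle replicates 1 and 2 the values were Ctsl −0.11, Lgmn −0.10, Ctsd −0.029, Scarb2 −0.12 and Npc1 −0.062. With median-of-ratios scaling the values were Lgmn −0.0064, Lamp2 −0.034, Cd63 −0.010, Asah1 −0.019 and Npc1 −0.026. With quantile normalization the values were Lamp2 −0.016, Scarb2 −0.011 and Npc1 −0.055. Without mitochondrial and haemoglobin genes the values were Lamp2 −0.013 and Npc1 −0.0064. With the GC trend removed the values were Cd63 −0.12 and Gla 0.053. With the GC trend removed and the replicate block the values were Cd63 −0.12 and Gla 0.053. With 1 library left out the ranges were Ctsl −0.033 to 0.11, Ctsz −0.14 to 0.0088, Lgmn −0.033 to 0.10, Ctsa −0.079 to 0.015, Lamp2 −0.090 to 0.13, Cd63 −0.0093 to 0.071, Scarb2 −0.041 to 0.12, Gla −0.10 to 0.053, Glb1 −0.092 to 0.046, Asah1 −0.086 to 0.16, Npc1 −0.076 to 0.065 and Mcoln1 −0.12 to 0.025.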

Other observations

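The libraries in which members were lowest or highest were unevenly spread. Vehicle replicate 2 held the lowest value for 13 of the 34 genes and rMANF replicate 3 for 10, while vehicle replicate 3 and rMANF replicate 2 held the lowest value for 0. Highest values fell mostly in vehicle replicate 1 (9 genes) and rMANF replicate 2 (9 genes).

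The 5 tested genes outside the list whose values over the 6 libraries ran most like the members' mean standardised level were Taf1a, a subunit of an RNA polymerase I factor (Pearson r = 0.99), the tetraspanin gene Tspan14 (0.98), the growth factor gene Nrg4 (0.98), the POU factor gene Pou2f2 (0.98) and the transporter gene Slc12a9 (0.98). These are descriptions over 6 libraries of 2 groups, picked from all tested genes. Of these 5, vehicle replicate 3 held the highest value for each, and all 5 groups overlapped, with log2 differences of −0.21 (Nrg4) to −0.0077 (Slc12a9).

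Exonic sequence is shared with another annotated gene for 11 of the 34 members, among them Ctsb with Fdft1, Ctsz with Nelfcd, Ctsa with Neurl2 and Pltp, Grn with Fam171a2 and Npc1 with Rmc1. No source used here says how such reads were split, so the values of these genes carry that uncertainty.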
